A study of Mus musculus with 28 samples.

Results

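T cells were compared between mouse jugular veins that served as controls and jugular veins that had become the outflow limb of an arteriovenous fistula (AVF), the surgical junction of an artery and a vein that serves as a dialysis access. A barcode of the single-cell libraries was taken as a T cell when it held 200 to 6000 detected genes, at most 10% of its unique molecular identifiers (UMIs, each standing for 1 captured RNA molecule) on mitochondrial genes, and at least 2 UMIs over the T cell receptor complex genes Cd3d, Cd3e, Cd3g, Trbc1 and Trbc2. It also had to hold no UMI of the B cell gene Cd79a, less than 0.5% of its UMIs on Lyz2, C1qa and C1qb of macrophages, less than 1.5% on S100a8 and S100a9 of neutrophils, and less than 1.5% on the fibroblast genes Col1a1, Col1a2, Col3a1 and Dcn. The rule found 1032 T cells among 16893 kept barcodes, from 26438 barcodes in the 3 libraries. The cells were thus selected on the levels of those 5 receptor genes, which are given as a description only.

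All animals were C57BL/6 mice of both sexes, and all of them, including those that gave the control veins, had chronic kidney disease from a 5/6 nephrectomy followed by a carotid-jugular AVF. The control tissue was therefore the contralateral jugular vein of an operated uremic mouse and not the vein of an unoperated one. The 3 single-cell libraries held digested contralateral veins, early AVFs and late AVFs, each a pool of vessels from male and female mice, with 1 library per condition and no exact day in the sample labels. In parallel, 25 bulk libraries of whole vessels covered 7 contralateral veins (5 female, 2 male), 8 early AVFs at about 3 days (3 female, 5 male), 5 mid AVFs at about 10 days (3 female, 2 male) and 5 late AVFs at about 21 days (3 female, 2 male). The study's methods give later mean days for the early and late single-cell vessels than for the bulk ones. Early and late thus name different times in the single-cell and the bulk data.

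T cells carry an antigen receptor, either an alpha-beta chain pair (Trac with Trbc1 or Trbc2) or a gamma-delta pair (Trdc with a Tcrg gene), that signals through the CD3 chains Cd3d, Cd3e and Cd3g. A naive T cell recirculates through lymphoid organs under Ccr7, S1pr1 and Klf2, and an activated one gains costimulatory receptors such as Icos and Tnfrsf4 and brakes such as Pdcd1 and Ctla4. In injured vessels T cells are known as a source of cytokines that act on macrophages, fibroblasts and smooth muscle cells.

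The promoters of 3 genes of the cells described here, the receptor chain Cd3g and the markers Il7r (receptor of the survival cytokine interleukin 7) and Cxcr6 (chemokine receptor of tissue T cells), are shown because motifs of T cell transcription factors were searched in them. Each window runs from 250 bases before to 50 bases after the RefSeq start on GRCm38.p6, written 5′ to 3′ along the gene, and capitals mark a match on either strand. The letters searched were TGTGGT for RUNX factors, then AGATAA for GATA factors, then CTTTGA for the factors TCF7 and LEF1, and finally TGANTCA for AP-1.

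Cd3g, chr9:44980382-44980681, minus strand: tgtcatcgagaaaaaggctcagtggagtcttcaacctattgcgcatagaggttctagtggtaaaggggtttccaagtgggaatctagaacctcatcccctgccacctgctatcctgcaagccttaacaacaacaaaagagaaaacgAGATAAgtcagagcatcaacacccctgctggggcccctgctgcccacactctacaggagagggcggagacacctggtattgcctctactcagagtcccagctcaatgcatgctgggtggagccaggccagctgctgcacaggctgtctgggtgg

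Il7r, chr15:9529827-9530126, minus strand: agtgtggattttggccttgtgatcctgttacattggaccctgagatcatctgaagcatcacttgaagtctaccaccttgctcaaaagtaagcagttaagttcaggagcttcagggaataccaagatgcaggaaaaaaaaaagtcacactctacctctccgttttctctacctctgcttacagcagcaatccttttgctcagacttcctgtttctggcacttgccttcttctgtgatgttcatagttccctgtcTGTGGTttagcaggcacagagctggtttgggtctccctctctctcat

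Cxcr6, chr9:123806227-123806526, plus strand: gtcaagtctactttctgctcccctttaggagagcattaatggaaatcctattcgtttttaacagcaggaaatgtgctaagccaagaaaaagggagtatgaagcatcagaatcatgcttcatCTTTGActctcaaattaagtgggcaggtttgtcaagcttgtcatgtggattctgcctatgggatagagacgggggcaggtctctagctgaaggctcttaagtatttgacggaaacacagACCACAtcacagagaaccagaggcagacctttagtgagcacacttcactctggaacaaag

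The Il7r window held 1 RUNX match, the Cxcr6 window 1 RUNX match on the opposite strand (ACCACA) and 1 TCF7/LEF1 match, and the Cd3g window 1 GATA match, with no match overlapping another. TGTGGT stood in 16.8% of all 32851 promoter windows, AGATAA in 11.2%, CTTTGA in 16.0% and TGANTCA in 7.81%. A set of 243 T-enriched genes was defined as those with at least 30 UMIs over the T cells and, in each of the 3 libraries, at least 8 times the level in T cells than in the other kept barcodes. Of its members, 173 had a RefSeq promoter, and 56 of them (32.4%) held TGTGGT, beside 18.9% of all 27025 genes with a window. The shares were 22.5% and 18.2% for CTTTGA, 11.6% and 12.7% for AGATAA, and 8.09% and 8.97% for TGANTCA. These are counts of letters in a window and say nothing of the factors themselves.

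The contralateral library gave 356 T cells of 6319 kept barcodes, the early AVF library 154 of 4753 and the late AVF library 522 of 5821. T cells thus made up 5.63% of kept barcodes in contralateral veins (95% exact binomial interval 5.08 to 6.23), 3.24% in early AVFs (2.76 to 3.78) and 8.97% in late AVFs (8.25 to 9.73). The order was early, contralateral, late, with no overlap between the intervals, which cover counting error only and not the spread between mice or digestions. With 1 library per condition no test between conditions could be made from the single cells. The late share was the highest and the early share the lowest under every setting of the rule tried, from at least 1 UMI (8.37%, 3.66% and 10.4% for contralateral, early and late) to at least 3 UMIs (4.67%, 3.03% and 8.59%). No T cell barcode was shared between libraries, and between 5 and 6 of the other kept barcodes were.

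The label was checked against the CD3 chains, since the beta chain constant genes Trbc1 and Trbc2 alone could admit a cell. Of the members, 157 held no UMI of Cd3d, Cd3e or Cd3g. They were 110 of 356 (30.9%) in the contralateral library, 17 of 154 (11.04%) in the early library and 30 of 522 (5.75%) in the late library. After thinning every cell to 1000 UMIs the shares were 50.3%, 29.4% and 32.2%. The members with a CD3 UMI, 246, 137 and 492 cells, made up 3.89% (3.43 to 4.40), 2.88% (2.43 to 3.40) and 8.45% (7.75 to 9.196) of kept barcodes, so the same order held and the intervals still did not overlap. Of the 157 members without CD3, 122 lay in 2 groups of cells described further on that led with genes of type 2 innate lymphocytes and natural killer (NK) cells, and values over the CD3-positive members alone are therefore given beside many of the results that they moved.

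**Figure D1:**
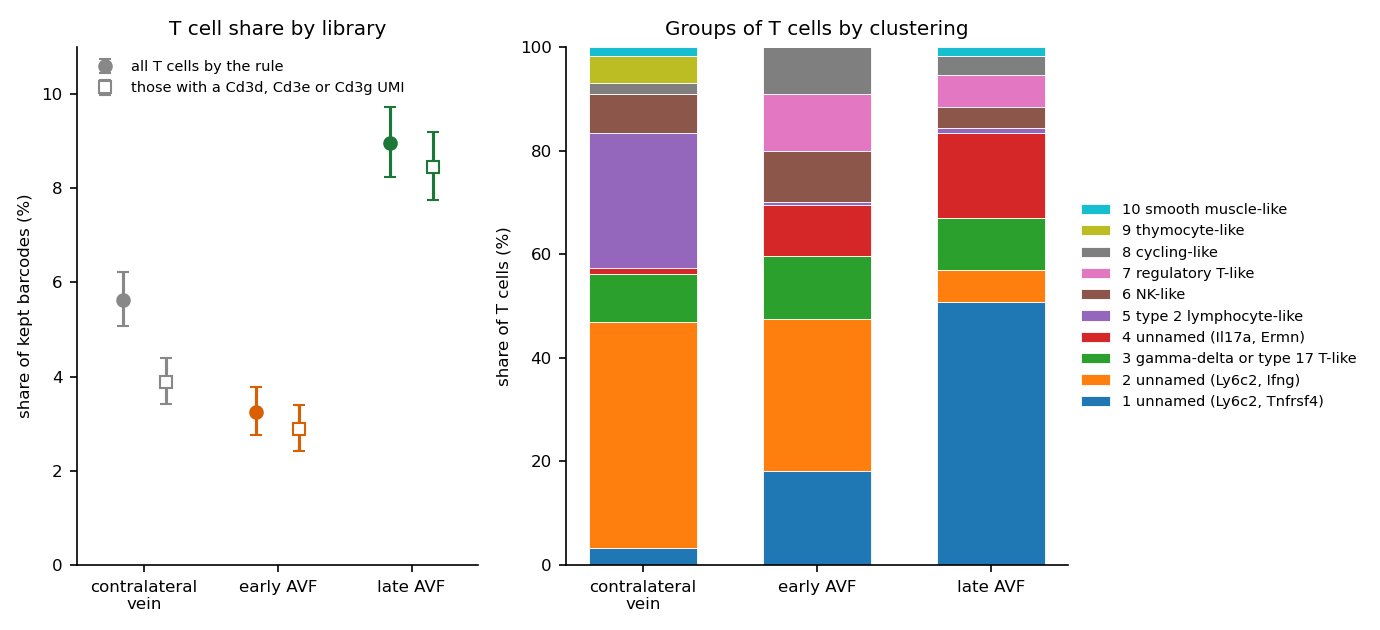
The left panel plots the share of kept barcodes that were T cells in each single-cell library (percent, with 95% exact binomial intervals), for all members (filled) and for those with a UMI of Cd3d, Cd3e or Cd3g (open). The right panel stacks the percent of T cells in each of the 10 groups found by clustering: group 2 made up 43.5% of contralateral T cells, and group 1 made up 50.8% of late T cells.

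Members just inside the threshold of 2 UMIs were few in the AVFs: 61 contralateral, 10 early and 22 late T cells had exactly 2 UMIs of the rule's genes, and 173, 20 and 82 barcodes that met every other condition had 1 UMI and stayed outside. The median number of these UMIs was 6, 13 and 14 per member. T cells had medians of 5633.5, 5938 and 6647.5 UMIs and of 1790, 1860 and 2072.5 genes in the contralateral, early and late libraries, but the contralateral library held more shallow ones, with lower quartiles of 3197, 4713 and 5377 UMIs and 10, 1 and 0 cells under 1000 UMIs. The other kept barcodes were further apart, at medians of 2626, 9272 and 16882 UMIs. Levels are given as CPM, the UMIs of a gene per 1000000 of the UMIs summed over the T cells of a library (2165056, 1234648 and 4121393 UMIs), with 95% exact Poisson intervals of the counts where an interval is given.

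RNA of other cells in the T cell barcodes was read through genes that T cells lack. Hbb-bs, the beta globin of red cells, stood at 14653 CPM in contralateral T cells, 196.8 in early and 820.6 in late ones, beside 60509, 6577 and 114.1 CPM in the other kept barcodes. A UMI of Hbb-bs was held by 355 of 356 contralateral and 116 of 154 early T cells, but by 15 of 522 late ones, where 1 cell held 58.5% of its UMIs. Lyz2 stood at 34.6, 247.8 and 173.2 CPM in T cells beside 813.6, 8297 and 2111 CPM. The summed level of the 8 macrophage genes was 93.8, 541.9 and 366.4 CPM in T cells, and the rule itself capped 3 of them. Smooth muscle genes summed to 27.7, 136.9 and 1150 CPM, the last mostly in a group of 15 cells described further on. The 7 dendritic cell genes summed to 63.7, 1302 and 563.9 CPM in T cells, beside 1863, 3692 and 5259 CPM in the other kept barcodes. The part of free RNA and of mixed barcodes in the differences that follow was not tested, and levels in the other barcodes are given for many of the genes described.

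Receptor chain levels are a description, since they chose the cells. Cd3g stood at 409.7 CPM in contralateral, 648.0 in early and 570.0 in late T cells, Cd3d at 240.2, 468.1 and 392.1, Cd3e at 242.5, 258.4 and 271.5. Trbc2 stood at 545.9, 648.0 and 446.2 CPM and Trbc1 at 422.2, 390.4 and 477.8. In the other kept barcodes none of the 5 exceeded 4.22 CPM in any library. Trac, the alpha chain constant gene, which the rule did not use, stood at 193.1 CPM in contralateral, 404.2 in early and 429.0 in late T cells, a ratio of 2.22 for late over contralateral (95% interval 2.00 to 2.48). With only the CD3-positive members that ratio was 1.60, and Cd3g stood at 609.1, 734.6 and 602.1 CPM.

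Icos, a costimulatory receptor induced on activated T cells, had the highest late over contralateral ratio of the 5 marker genes given for T cells (Cd3g, Trbc2, Icos, Il7r and Cxcr6), and outside that set Tnfrsf4, Tnfrsf9, Ctla4 and Pdcd1 had higher ones. Its level was 101.6 CPM in contralateral, 417.1 in early and 860.6 in late T cells, 4.10 times the contralateral level in early (3.50 to 4.83) and 8.47 times in late T cells (7.39 to 9.75). A UMI of Icos was found in 29.5%, 55.8% and 73.6% of T cells and, with every cell thinned to 1000 UMIs, in 7.5%, 25.5% and 43.7%. Among CD3-positive members the levels were 116.7, 460.9 and 901.0 CPM, ratios of 3.95 and 7.72. The direction and the order of the 3 libraries were the same with and without the CD3-negative members.

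Cxcr6 followed another order. It stood at 240.2 CPM in contralateral, 153.1 in early and 535.0 in late T cells, 0.637 times the contralateral level in early (0.537 to 0.754) and 2.23 times in late T cells (2.02 to 2.46). The early level was the lowest and the late level the highest of the 3, also among CD3-positive members (256.2, 172.6 and 553.4 CPM). By the share of T cells with a UMI of Cxcr6 only the late library stood apart, at 38.8%, 40.3% and 67.05%, and at 15.3%, 13.7% and 33.3% after thinning. Il7r varied less than Icos and Cxcr6, at 521.0, 374.2 and 555.4 CPM, and the interval of its late over contralateral ratio (0.992 to 1.15) included 1. Among CD3-positive members Il7r stood at 440.2, 411.4 and 566.5 CPM, a late over contralateral ratio of 1.29, outside that interval. Il7r was also the marker with the highest level outside T cells, 17.6, 36.7 and 49.7 CPM in the other kept barcodes, where Icos, Cxcr6 and Trbc2 did not exceed 5.14 CPM.

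**Figure D2:**
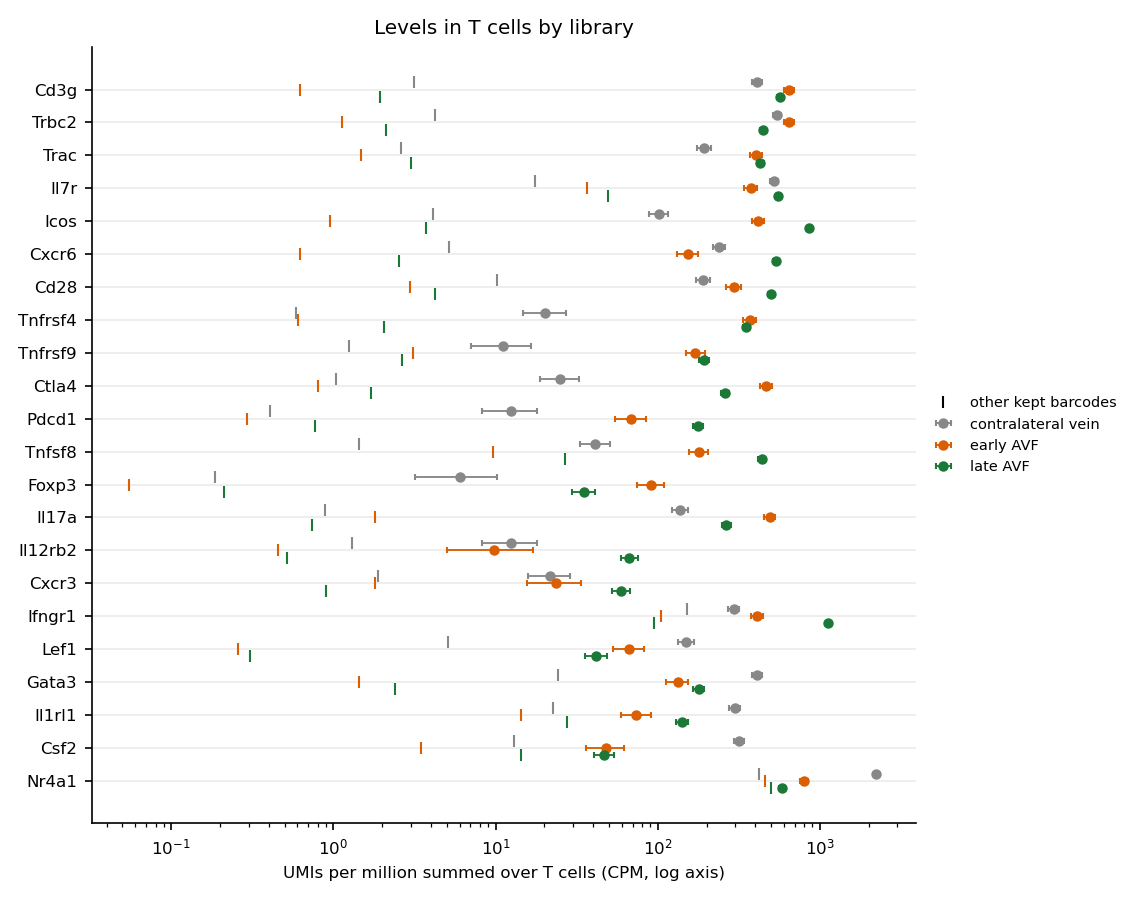
Levels of 22 genes in the T cells of each single-cell library, in CPM on a log axis, with 95% exact Poisson intervals that cover counting error only, and with ticks for the level in the other kept barcodes. In late T cells Icos stood at 8.47 times the contralateral level, and Tnfrsf4, Tnfrsf9, Pdcd1 and Ctla4 stood at 10.5 to 17.5 times theirs.

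Across the T cell identity list (receptor chains, coreceptors, signalling proteins and transcription factors), all 32 genes had at least 40 UMIs over the libraries compared. The list included the 5 genes of the rule, which chose the cells, so its counts and medians are a description only. The CD3-positive members were chosen again on Cd3d, Cd3e and Cd3g. In early T cells 5 were at least 2-fold above the contralateral level and 0 were at or below 0.5 of it, with a median ratio of 1.22. In late T cells 8 were at least 2-fold above and 1 at or below 0.5, with a median of 1.31. Over all 7311 genes with as many UMIs, 5.95% were at least 2-fold higher in early than in contralateral T cells and 9.57% at or below 0.5, with a median ratio of 0.966. For late over contralateral these were 8.38% and 9.39% of 8878 genes, also with a median of 0.966. The same shares over all genes are the ones to set beside the counts of the other lists below. Among CD3-positive members, 2 identity genes were at least 2-fold higher and 3 at or below 0.5 in early, and 5 and 2 in late T cells, with medians of 1.02 and 1.07 beside 0.938 and 0.954 over all genes.

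Adhesion and costimulatory proteins of the synapse were among the identity genes that were higher in late T cells. Cd2, which binds its ligand on partner cells, stood at 94.7, 288.3 and 437.2 CPM, and Cd6, a scavenger receptor type protein, at 82.7, 186.3 and 355.7. Cd28, the primary costimulatory receptor, stood at 190.3, 294.8 and 501.5 CPM. All 3 were in the order contralateral, early, late, and the late over contralateral ratios were 4.62, 4.30 and 2.64. The order was the same among CD3-positive members, where these ratios were 3.46, 3.13 and 1.93. Bcl11b, a transcription factor of T cell commitment that innate lymphocytes of type 2 also use, ran the other way at 366.3, 183.9 and 211.8 CPM. The kinase Lck stood at 152.4, 242.2 and 259.1 CPM.

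Costimulatory receptors of the tumor necrosis factor (TNF) receptor family differed in how far apart the libraries were, and Tnfrsf4 and Tnfrsf9 were near the lower end of detection in contralateral T cells. Tnfrsf4 (OX40) stood at 20.3 CPM there, 369.3 in early and 351.3 in late T cells, ratios of 18.2 (13.3 to 25.4) and 17.3 (12.8 to 23.9). Tnfrsf9 (4-1BB) stood at 11.1, 170.9 and 193.9 CPM, ratios of 15.4 (10.1 to 24.6) and 17.5 (11.7 to 27.5). Both were high in early and in late T cells alike, and the interval of late over early included 1 for each (0.856 to 1.06 and 0.973 to 1.33). Much of both levels came from few cells. A regulatory T-like group of 17 early and 32 late cells found by clustering, which had no contralateral cell, made up 11.04% and 6.13% of T cells but held 54.5% and 49.6% of the Tnfrsf9 and 58.1% and 32.7% of the Tnfrsf4 UMIs. The T cells outside it stood at 11.1, 88.0 and 105.7 CPM of Tnfrsf9 and at 20.3, 175.1 and 255.6 CPM of Tnfrsf4. With CD3-positive members only, the ratios were 14.8 and 13.1 for Tnfrsf4 and 20.3 and 22.02 for Tnfrsf9. Tnfrsf18 (GITR), of the same family, stood at 97.9, 219.5 and 169.4 CPM, ratios of 2.24 (1.87 to 2.70) and 1.73 (1.48 to 2.03), and Cd27 at 74.4, 95.6 and 125.4. Of the 8 costimulation genes, 4 were at least 2-fold higher in early and 4 in late than in contralateral T cells, with median ratios of 1.89 and 2.28.

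Several inhibitory receptors were higher in AVF T cells as well. Pdcd1 (PD-1) stood at 12.5 CPM in contralateral, 68.0 in early and 178.1 in late T cells, ratios of 5.46 (3.50 to 8.76) and 14.3 (9.73 to 21.8). Ctla4, which competes with Cd28 for its ligands, stood at 24.9, 464.9 and 261.1 CPM, ratios of 18.6 (14.1 to 25.1) and 10.5 (7.96 to 14.0). The 2 genes peaked in different libraries, Ctla4 in early and Pdcd1 in late T cells. Of the 6 measured members of the list 4 were at least 2-fold higher in each AVF library, with median ratios of 4.43 and 7.05. The same regulatory T-like group held 50% of the early and 21.5% of the late Ctla4 UMIs, and outside it Ctla4 stood at 24.9, 263.0 and 221.7 CPM. The late ratio of Ctla4 was 7.37 among CD3-positive members. In the other kept barcodes neither gene exceeded 1.70 CPM.

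Regulatory T cells restrain other T cells through the transcription factor Foxp3. A UMI of Foxp3 was found in 6 of 356 contralateral (1.69%), 22 of 154 early (14.3%) and 30 of 522 late T cells (5.75%), beside 0.0599%, 0.146% and 0.447% of fibroblasts, whose median depths were 4721.5, 16197 and 24616 UMIs. After thinning, the shares were 0.289%, 1.96% and 1.72%. Foxp3 stood at 6.00, 90.7 and 34.9 CPM, an early ratio of 15.1 that was 9.90 with every cell weighted equally. Of the 22 early Foxp3 cells, 22 also held Tnfrsf4, 22 held Ikzf2 (a partner factor), 21 held Il2ra (the alpha chain of the interleukin 2 receptor), 19 held Ctla4 and 0 held Cd8a. Of the 30 late ones, 29 held Tnfrsf4, 28 Ctla4, 26 Klrg1, 25 the epidermal growth factor ligand Areg and 0 Cd8a. Of the measured members of the regulatory T list, 4 of 7 were at least 2-fold higher in early and 5 of 9 in late than in contralateral T cells.

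Several genes of naive and recirculating cells were lower in late than in contralateral T cells. Lef1, a transcription factor of naive cells, stood at 149.2 CPM in contralateral, 66.4 in early and 41.7 in late T cells, a late over contralateral ratio of 0.280 (0.231 to 0.338). Of the 9 genes of the list, 0 were at least 2-fold higher and 4 at or below 0.5 in late against contralateral T cells. Ccr7, the receptor that guides cells to lymph nodes, was no part of that pattern, at 69.7, 166.0 and 132.5 CPM, and stood at 21.0, 53.0 and 74.5 CPM in the other kept barcodes.

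Genes of tissue residence and activation were at least 2-fold higher in the AVF libraries for 3 of 8 measured members each, and for 1 in early and 3 in late T cells with CD3-positive members only. Rgs1, a brake on chemokine receptor signalling, stood at 491.9, 1016 and 1319 CPM, ratios of 2.07 and 2.68 (2.51 to 2.87). It was also abundant outside T cells, at 75.7, 502.4 and 261.7 CPM. Cd69, an early activation antigen that retains cells in tissue, stood at 306.2, 334.5 and 173.5 CPM. The hyaluronan receptor Cd44 stood at 250.8, 330.5 and 525.1 CPM, below its level in the other early and late barcodes (591.6 and 651.6).

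Some receptors and factors of type 1 responses, which drive interferon gamma production, were higher in the late library. Of the 7 measured genes, 4 were at least 2-fold above the contralateral level there (median ratio 2.09), against 0 of 6 in early T cells (1.14). Among CD3-positive members 2 of the 7 were (median ratio 1.74). Il12rb2, the signalling chain of the interleukin 12 receptor, stood at 12.5, 9.72 and 66.7 CPM, a late ratio of 5.35 (3.60 to 8.27). Stat4, which acts downstream of it, stood at 112.7, 148.2 and 301.4 CPM, and the chemokine receptor Cxcr3 at 21.7, 23.5 and 59.5. The cytokine Ifng itself did not follow them, at 219.9, 260.0 and 185.1 CPM. Ifngr1, the ligand-binding chain of the interferon gamma receptor, stood at 294.7, 409.8 and 1124 CPM, 3.81 times the contralateral level in late T cells (3.51 to 4.15). With CD3-positive members only the late ratio of Ifngr1 was 3.11.

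Cytotoxic effectors were present in all 3 libraries. Ccl5, a chemokine of memory and cytotoxic cells, was the most abundant at 1125, 1484 and 1551 CPM, and Nkg7, a protein of cytotoxic granules, stood at 264.2, 460.9 and 327.3. Granzyme B (Gzmb) stood at 88.7, 263.2 and 173.5 CPM and granzyme A (Gzma) at 254.0, 238.9 and 150.2. With every cell weighted equally the early ratio of Gzmb was 1.86 in place of 2.97, and those of Gzma were 0.423 in early and 0.241 in late T cells in place of 0.941 and 0.591. In CD3-positive members Gzmb stood at 60.4, 284.6 and 160.5 CPM and Gzma at 105.8, 63.4 and 32.3. Granzyme K (Gzmk) was found with 0 UMIs in contralateral, 6 in early and 76 in late T cells, at least 13.3-fold higher in late than in contralateral T cells against a floor of 3 UMIs. Gzmk was held by 25 of the 64 late cells with a UMI of Cd8a or Cd8b1 and none of Cd4, by 1 of 19 early ones and by 0 of 20 contralateral ones. In those same cells Cxcr6 was held by 4 of 20, 4 of 19 and 40 of 64.

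Type 17 cytokines, which recruit neutrophils, were highest in early T cells. Il17a stood at 137.6, 490.0 and 265.4 CPM, ratios of 3.56 (3.09 to 4.10) and 1.93 (1.69 to 2.20), and Il17f at 36.5, 91.5 and 44.2. With every cell weighted equally the late ratio of Il17a was 2.96, and those of Il17f were 4.14 in early and 1.84 in late T cells in place of 2.51 and 1.21. In CD3-positive members the ratios of Il17a were 2.71 and 1.35, and Il17f stood at 54.3, 103.8 and 39.7 CPM. Its late level thus lay below the contralateral one there, and above it over all members. A UMI of Il17a or Il17f was found in 4.21%, 17.5% and 14.6% of T cells, beside 0.180%, 0.437% and 1.14% of fibroblasts, and in 2.60%, 13.1% and 9.00% after thinning. Il22 had 1, 181 and 42 UMIs, but the 181 early UMIs came from 4 cells. Among the cells with Il17a or Il17f, Trdc of the gamma-delta receptor was held by 8 of 15 contralateral, 12 of 27 early and 20 of 76 late cells. Trac was held by 9 of 15, 18 of 27 and 61 of 76. Over all T cells Trdc stood at 218.9, 255.9 and 137.1 CPM and the gamma chain gene Tcrg-C1 at 113.6, 62.4 and 38.6. Of the 6 measured gamma-delta receptor genes 5 were at or below 0.5 of the contralateral level in late T cells.

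Several genes of type 2 responses were higher in the contralateral library. Gata3, the transcription factor of type 2 T cells and type 2 innate lymphocytes, stood at 409.7, 132.8 and 178.6 CPM, and Il1rl1, the receptor of interleukin 33, at 299.8, 73.7 and 141.2. Csf2 (GM-CSF) stood at 316.9, 47.8 and 46.6 CPM. Of the 9 measured genes 6 were at or below 0.5 of the contralateral level in early and 5 in late T cells, with median ratios of 0.247 and 0.471. At least 2-fold above it stood 1 gene in early and 1 in late T cells. With CD3-positive members only, 4 and 3 were at or below 0.5, and 0 and 1 at least 2-fold above. Among these members Gata3 stood at 228.0, 119.4 and 159.9 CPM and Csf2 at 77.6, 22.04 and 34.9. Il1rl1 stood at 130.5, 61.5 and 141.5 CPM, which put its late over contralateral ratio at 1.08 in place of 0.471. Of the 97 contralateral cells with UMIs of both Il1rl1 and Gata3, 89 held Trbc2, 30 Cd3g, 6 Trac and 3 Cd3e. Of the 40 late ones, 33 held Trbc2, 34 Cd3g, 31 Trac, 30 Cd3e and 21 Foxp3. The cells behind the same gene pair thus differed between the libraries in how many held Trac and the CD3 chains.

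Cytokines and ligands outside these classes differed gene by gene. Tnfsf8 (CD30 ligand) stood at 41.1, 179.0 and 438.0 CPM, ratios of 4.35 and 10.7 (8.61 to 13.3), the last 7.98 with CD3-positive members only. Its level in the other kept barcodes was 1.44, 9.69 and 27.0 CPM. Of 20 measured T cell cytokine genes, 4 were at least 2-fold higher and 3 at or below 0.5 in late against contralateral T cells, and in early T cells both counts were 4 of 18. Over all genes measured alike these shares were 8.38% and 9.39% in late, and 5.95% and 9.57% in early T cells.

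Cell division genes were lower in late than in early T cells. Mki67 stood at 141.8, 251.1 and 117.7 CPM and Top2a at 112.2, 263.2 and 98.0. Of the 12 genes 10 were at least 2-fold above the contralateral level in early T cells (median ratio 2.35) and 0 in late T cells (0.846), and 12 of 12 were at or below 0.5 of the early level in late T cells (median 0.324). When CD3-positive members alone were read, 1 of the 12 was at least 2-fold above the contralateral level in early T cells (median ratio 1.47), and Mki67 stood at 207.4, 213.0 and 124.3 CPM, while 10 of 12 were at or below 0.5 of the early level in late T cells. Late against contralateral, 5 of 12 were at or below 0.5 among these members (median ratio 0.608), beside 0 of 12 over all members. Over all 8244 genes compared, 5.14% were at or below 0.5 and 8.27% at least 2-fold higher in late against early T cells. Immediate early and heat shock genes, which digestion can induce, were at or below 0.5 of the contralateral level for 10 of 15 in early and 7 of 15 in late T cells. Nr4a1, an early target of receptor signalling, stood at 2224, 798.6 and 584.3 CPM, and Fos at 2389, 711.9 and 725.2, while the other kept barcodes held 1939, 2003 and 4049 CPM of Fos. For CD3-positive members the counts were 7 and 5 of 15, and Fos stood at 1498, 658.4 and 742.8 CPM.

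Interferon-stimulated genes were at least 2-fold higher for 6 of 9 in early and 8 of 11 in late against contralateral T cells, with median ratios of 2.16 and 2.44. Ifi27l2a stood at 152.9, 1059 and 657.8 CPM and Isg15 at 66.0, 142.6 and 196.1. The other kept barcodes held comparable levels of Ifi27l2a (331.9, 704.7 and 464.0 CPM) and more Isg15 (75.7, 309.1 and 240.4 CPM), and the part of free RNA in these ratios was not tested.

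Shares of subsets were read from defining genes in single cells. Cells with a UMI of Cd4 and none of Cd8a or Cd8b1 made up 13.2% of contralateral, 27.9% of early and 36.8% of late T cells (47, 43 and 192 cells), and 4.05%, 7.84% and 10.3% after thinning. Cells with Cd8a or Cd8b1 and no Cd4 made up 5.62%, 12.3% and 12.3%, and 4.34%, 4.58% and 5.56% after thinning. Fibroblasts held the CD4 class in 0.778%, 0.146% and 0.795% of cells. The order of the CD4 share was the same before and after thinning, while most of the difference in the CD8 share was gone after it. Of the 8 classes examined, 7 had a higher share in late than in contralateral T cells and 6 after thinning.

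**Figure D3:**
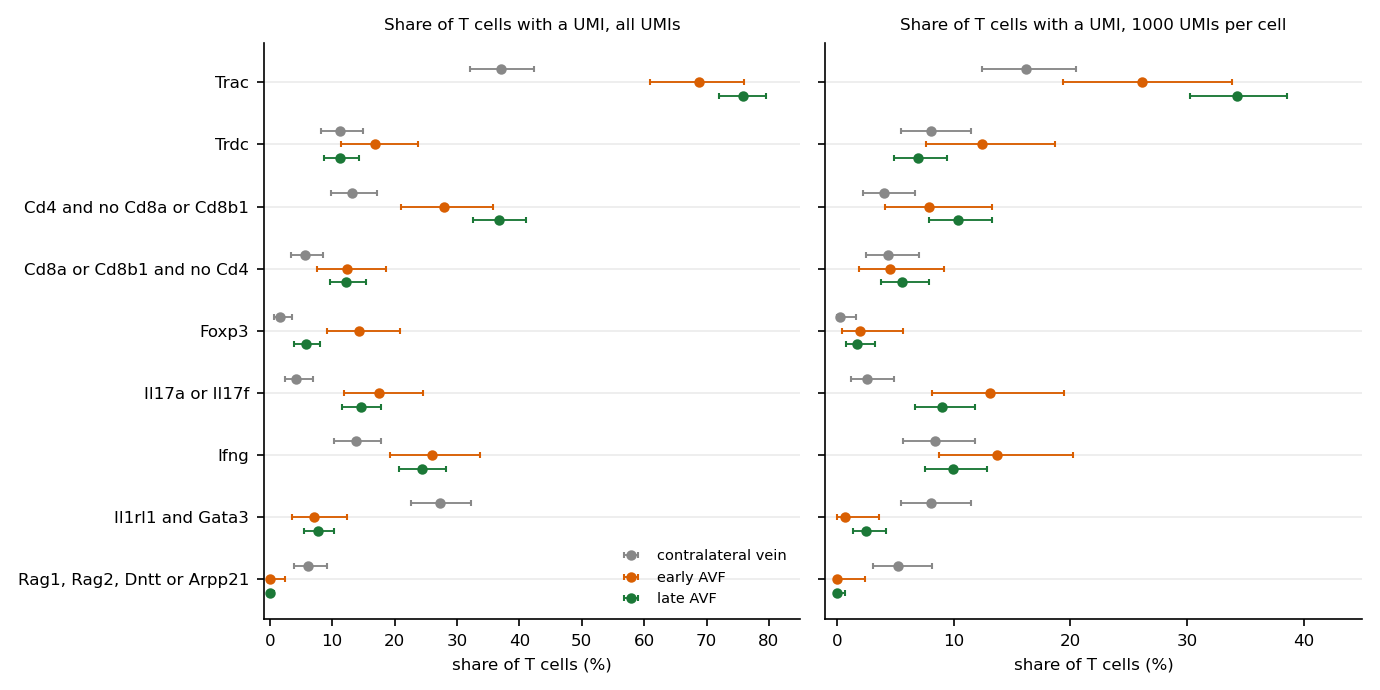
Share of T cells (percent) with a UMI of the genes that define each class, in each single-cell library, from all UMIs and after thinning to 1000 UMIs per cell, with 95% exact binomial intervals. Cells with Cd4 and no Cd8 made up 13.2%, 27.9% and 36.8% before thinning, and cells with both Il1rl1 and Gata3 were 27.2% of contralateral T cells against 7.14% and 7.66%.

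Within the CD4 class several activation genes were held by more of the late than of the contralateral cells. Icos was held by 20 of 47 contralateral, 33 of 43 early and 164 of 192 late cells, Tnfrsf4 by 10 of 47, 26 of 43 and 140 of 192, and Ctla4 by 4 of 47, 27 of 43 and 130 of 192. Cxcr6 was held by 11 of 47, 21 of 43 and 142 of 192. Tnfsf8 was held by 14 of 47, 20 of 43 and 111 of 192. The order contralateral, early, late was the same for these 5 genes. It did not hold for Pdcd1 (2 of 47, 14 of 43 and 45 of 192) and Foxp3 (3, 14 and 18), which had their highest share in early cells, or for Cd40lg (18, 13 and 73), which had its lowest there. The class did not hold the same kinds of cell in each library. By the groups of the clustering described next, 35 of its 47 contralateral cells lay in group 2, against 11 of 43 early and 7 of 192 late ones, while 105 late cells lay in group 1, 46 in group 4 and 19 in the regulatory T-like group 7, beside 4, 3 and 0 contralateral ones. The counts above thus compare unlike cells and not 1 kind of cell over time.

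Clustering of the T cells alone gave 10 groups, which describe how the cells vary. The genes that lead a group also set it, and a group mostly of 1 library may stand for that library and not for a cell type, so the counts and percents per library are given as a description. Group 1 (305 cells: 12 contralateral, 28 early, 265 late) led with Ly6c2, Ccl5, Xcl1 and Tnfrsf4 and held Cd4 in 40% and Cd8b1 in 18% of its cells. Group 2 (232 cells: 155, 45 and 32) led with Ly6c2, Ccl5, Xcl1 and Ifng. Its 10 leading genes also held 3 erythroid genes (Hbb-bt, Alas2 and Hbb-bs) and Lef1 of naive T cells. Groups 1 and 2 stayed unnamed, since their leading genes belonged to more than 1 class. At a finer resolution of 13 groups, group 1 fell mainly into an unnamed group of 188 cells (5, 14 and 169) and a CD8 or cytotoxic T-like group of 101 cells (7, 12 and 82). The group of 188 cells had Plac8, Tnfrsf4 and Ly6c2 among its leading genes, and also the antigen presentation genes Cd74, H2-Eb1, H2-Ab1 and H2-Aa. Of these, Cd74 and H2-Ab1 belong to the dendritic cell list, and the part of RNA from such cells was not tested. Another unnamed group of 94 cells (88, 4 and 2) took 87, 4 and 1 of them from group 2. Of the 10 leading genes of that group 5 were erythroid (4 hemoglobin genes and Alas2) and 3, Lef1, Dapl1 and Ccr7, were naive T cell markers.

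Group 3 (105 cells: 33, 19 and 53) was gamma-delta or type 17 T-like, with Il17a, Cd163l1 and Trdc among its leading genes. Group 4 (104 cells: 4, 15 and 85) led with Il17a, Tnfsf8, Il17f and Ermn, held Trac in 91% and Trdc in 0% of its cells, and stayed unnamed. Both groups that led with Il17a thus differed in the receptor they held. Group 7 (49 cells: 0, 17 and 32) was regulatory T-like, with Foxp3 in 78% and Tnfrsf4 in 98% of its cells, and group 8 (40 cells: 7, 14 and 19) was cycling-like.

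The other 4 groups were those least like conventional T cells. Group 5 (99 cells: 93, 1 and 5) was type 2 lymphocyte-like, with Gata3 in 97% and Il1rl1 in 96% of its cells, Trbc2 in 89%, Trac in 3% and a UMI of a CD3 chain in 28 of 99 cells. Group 6 (64 cells: 27, 15 and 22) was NK-like, with Klrb1c in 78%, Prf1 in 70% and a CD3 chain in 13 of 64 cells. Group 9 held 19 contralateral cells and no others, was thymocyte-like with Rag1, Dntt and Arpp21 among its leading genes, and had a median of 2585 UMIs. Group 10 (15 cells: 6, 0 and 9) was smooth muscle-like, had Tagln and Acta2 among its leading genes, and had a median of 19870 UMIs against 5633.5 to 6647.5 over all T cells. A doublet caller marked 0, 1 and 98 kept barcodes in the contralateral, early and late libraries, 0, 0 and 4 of them T cells, and did not work in the first 2 libraries, where it marked under 0.5%.

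Thymocyte genes, which T cells use while they form their receptor in the thymus, were found in the contralateral library. Rag1 had 128 UMIs in 19 cells and Dntt 156 UMIs in 17 cells, and 22 cells held a UMI of Rag1, Rag2, Dntt or Arpp21. No early or late T cell held one, which, at a floor of 3 counts, allows a share of cells with a UMI of up to 1.95% and 0.575%. Of the 22 cells, 14 held Cd4, 13 Cd8a, 21 Tcf7 and 0 Cxcr6. Without them the contralateral level of Trbc2 was lower, and its late over contralateral ratio was 1.00 in place of 0.817. In bulk these genes were not limited to contralateral veins. Rag1 reached 1.42 CPM in contralateral veins and 1.32, 0.940 and 3.64 CPM in early, mid and late AVFs, and Dntt 13.4, 6.79, 0.553 and 4.96 CPM. Rag2 and Ptcra were at 0 in every contralateral library and reached 1.09 and 0.202 CPM in late AVFs. Of the 7 thymocyte genes 2 had enough counts for a test, and 0 were called by edgeR and 0 had an unadjusted p under 0.05 against contralateral veins.

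Levels within the same group were read side by side for groups with at least 20 cells in a library. Icos stood at 383 CPM in early and 819 CPM in late cells of group 1, at 99, 111 and 214 CPM in contralateral, early and late cells of group 2, and at 136 CPM in contralateral and 1553 CPM in late cells of group 3. Cxcr6 stood at 136, 66 and 214 CPM in group 2 and at 685 and 1086 CPM in contralateral and late cells of group 3. Ifngr1 stood at 261, 264 and 600 CPM in group 2, at 565 and 842 in group 3 and at 432 and 1046 in group 6. Late cells had the highest level of these 3 genes in each of the groups named, but the cells of a group were not of 1 kind. At the finer resolution 31 of the 33 contralateral cells of group 3 lay in one group and 34 of its 53 late cells in the other, and in group 2 the finer group led by hemoglobin genes held 87 of 155 contralateral and 1 of 32 late cells. Tnfrsf4 stood at 171 and 322 CPM in early and late cells of group 1, at 34, 70 and 80 CPM in group 2 (23, 17 and 15 UMIs), at 0 and 24.7 CPM in contralateral and late cells of group 6 and at 0 in both libraries of group 3.

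The largest ratios between libraries were looked for among genes with at least 40 UMIs over both libraries and, in the library where they were higher, at least 2 times the level of the other kept barcodes (1653 genes for early over contralateral, 2019 for late over contralateral and 2192 for late over early). They included genes held by few cells. Ermn, a cytoskeletal linker protein, was found with 199 UMIs in 46 late cells and 0 in contralateral cells, at least 34.8-fold higher against the floor of 3 UMIs. Nmrk1, a kinase of nicotinamide riboside, stood at 8.31, 29.2 and 132.7 CPM, and Il1r2, the decoy receptor of interleukin 1, at 4.62, 119.9 and 74.0, beside 38.2, 87.9 and 31.2 CPM in the other kept barcodes. The high late level of Gzmc came from 1 cell, which held 89% of its UMIs. Late against early T cells, Il12rb2 was 6.87 times higher.

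Bulk RNA of whole vessels was used to compare conditions over animals. The libraries held 20254173 to 29913427 counts in contralateral veins, 23676215 to 67457501 in early, 27021483 to 33395623 in mid and 27855449 to 36879746 in late AVFs. Contralateral libraries detected fewer genes (11958 to 18283, median 13875) than early (17514 to 25141), mid (25075 to 26168) and late ones (24529 to 26771), and the part of this in the results was not tested. Among 56980 genes, 12673 had a mean normalized count of at least 100 and were tested with edgeR's quasi-likelihood test with Benjamini-Hochberg adjustment, and a gene was called at an adjusted p under 0.01 and a 2-fold change. Many T cell genes fell under that floor: 18 of 32 identity genes and 73 of 243 T-enriched genes were tested. In whole tissue, fewer T cells and less RNA per T cell cannot be told apart.

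Cd4, the coreceptor of helper T cells, was the identity gene called at all 3 time points. In contralateral veins it had 2 counts in total, with 6 of 7 libraries at 0 and a highest value of 0.0895 CPM. Early AVFs ranged from 0.338 to 13.7 CPM with a median of 3.29, mid AVFs stood at 11.2, 5.93, 3.62, 8.86 and 10.2 CPM and late AVFs at 13.1, 11.9, 9.48, 9.45 and 7.997 CPM. Every AVF library was above every contralateral one, as were 4.23%, 7.07% and 5.89% of all tested genes in early, mid and late AVFs. The adjusted p of edgeR's quasi-likelihood test was 5.88e-06 at the early, 6.53e-06 at the mid and 5.29e-06 at the late time point. In the single cells T cells held 40%, 24% and 55% of the Cd4 UMIs of kept barcodes, so other cells, such as macrophages, share in this value.

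Cd3g is a CD3 chain and 1 of the 5 genes by which T cells were selected, so that its UMIs lie in them largely by construction. In bulk it had 37 counts in the contralateral libraries together (0 in 4 of 7, highest 1.31 CPM). Early AVFs ranged from 0.0763 to 15.3 CPM with a median of 1.49, mid AVFs stood at 8.29, 4.09, 4.56, 7.99 and 5.73 CPM and late AVFs at 12.1, 7.76, 6.88, 18.9 and 11.8 CPM. All mid and late libraries were above all contralateral ones, as was so for 7.07% and 5.89% of all tested genes, whereas early libraries overlapped them. The log2 fold change against contralateral veins was 3.97 ± 1.205 (SE) in early (adjusted p = 0.0177), 4.68 ± 1.29 in mid (0.0163) and 5.59 ± 1.34 in late AVFs (0.00641) by edgeR's quasi-likelihood test, so that Cd3g passed the threshold in late AVFs alone. That call was lost without contralateral replicate 27, 28 or 35 or without any of the late replicates, and with sex as a term, at adjusted p from 0.0101 to 0.0150. Late and early AVFs did not differ by the test (log2 fold change 1.62 ± 1.12, adjusted p = 0.614 by edgeR's quasi-likelihood test).

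Over the 18 tested identity genes, 1 was called higher than in contralateral veins at the early, 1 at the mid and 2 at the late time point, and 0 lower. These counts depended on the processing, since they were 4, 2 and 2 by DESeq2, and 3 in early AVFs without contralateral replicate 34. With a base mean of at least 10, which admitted more of the 32 identity genes to the test, they were 4, 5 and 7. The shares of all genes called under these other settings are not given here, so these counts cannot be read as a result about T cell genes. In the main edgeR fit 12.6% of all 12673 genes were called at the early time point in either direction, 6.05% at the mid and 5.33% at the late one. Those above contralateral veins were 6.17%, 2.74% and 2.49% of all genes, and those below were 6.45%, 3.31% and 2.85%. The median log2 fold change of the 18 was 0.91, 0.63 and 0.92, beside -0.01, -0.10 and -0.09 over all genes. Late against early AVFs, 3.01% of all genes were called (0.726% higher, 2.28% lower), and 0 of the 18 were called by edgeR or by DESeq2 and 0 had an unadjusted p under 0.05 by edgeR, with a median log2 fold change of 0.74. The summed level of the 32 genes ranged from 101.9 to 440.6 CPM (median 155.8) in contralateral veins, from 200.3 to 480.9 (237.7) in early, from 215.5 to 333.4 (268.7) in mid and from 240.2 to 450.9 (335.7) in late AVFs, and the groups overlapped.

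Contralateral replicate 28 stood apart for several T cell genes. Themis, a signalling protein of developing T cells, stood at 174.8 CPM there and at no more than 0.179 CPM in the other contralateral libraries. Cd8a stood at 57.6 CPM and Trbc1 at 52.9 CPM in the same library. There the 7 B cell genes summed to 2855 CPM and the 5 plasma cell genes to 1203 CPM, beside at most 752 and 342 CPM in the other contralateral libraries, and their part in these values was not tested. The fitted log2 fold change of Themis was -5.09 in early AVFs (adjusted p = 0.0488 by edgeR's quasi-likelihood test), which is not called, and turned to 2.88 by DESeq2 (adjusted p = 0.125). Without that library the gene fell under the floor of the test. Among early AVFs, replicate 4 had the highest value of Cd3g, Cd3e, Cd4, Trbc2, Icos and Cxcr6.

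The untested CD3 chains were read by their values alone. Cd3e did not exceed 0.610 CPM in contralateral veins and ranged from 0.178 to 7.78 CPM in early AVFs (median 0.648). It stood at 5.36, 2.59, 4.17, 7.55 and 3.90 CPM in mid and at 3.63, 2.06, 3.20, 8.56 and 5.39 CPM in late AVFs. Cd3d did not exceed 0.691 CPM in contralateral veins and stood at 1.99 to 5.92 CPM in mid and 2.77 to 11.3 CPM in late AVFs. For both genes every mid and late library lay above every contralateral library and early libraries overlapped. Among all tested genes 7.07% and 5.89% lay entirely above in mid and late AVFs, and neither gene was among those tested.

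Of the beta chain Trbc2, contralateral veins held 0 to 44.2 CPM (median 5.83) and early AVFs 1.01 to 31.8 CPM (median 4.32). Mid AVFs stood at 9.99, 3.57, 5.39, 6.31 and 5.54 CPM and late AVFs at 15.9, 4.45, 6.81, 21.1 and 13.1 CPM. The groups overlapped at every time point, and no comparison passed the test (adjusted p from 0.541 to 0.960 by edgeR's quasi-likelihood test). Trac ran from 1.79 to 55.5 CPM in contralateral veins (median 31.2), above the early median of 8.50 CPM. The contralateral medians of Trbc2 and Trac were thus above those of Cd3g and Cd4, which were 0.

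The marker Icos was under the floor of the test. It did not exceed 2.30 CPM in contralateral veins, stood at 6.79, 1.87, 3.32, 3.23 and 4.57 CPM in mid AVFs, and at 4.32, 3.44, 4.45, 10.5 and 5.89 CPM in late AVFs. Only late libraries lay entirely above the contralateral ones, as did those of 5.89% of all tested genes. Cxcr6 ranged from 0 to 40.4 CPM in contralateral veins (median 3.29) and from 0 to 9.82 CPM in early AVFs (median 3.12), stood at 21.5, 10.6, 9.93, 17.9 and 13.7 CPM in mid AVFs and at 24.9, 19.1, 16.3, 20.7 and 24.5 CPM in late AVFs. Every late library was above every early one, as were 6.8% of all tested genes beside 7.69% entirely below, but the log2 fold change of 2.23 ± 1.27 did not pass (adjusted p = 0.451 by edgeR's quasi-likelihood test). Il7r ranged from 0 to 44.99 CPM in contralateral veins and from 15.1 to 81.6 CPM in early AVFs, stood at 26.8 to 37.2 CPM in mid and 16.7 to 26.6 CPM in late AVFs, and passed no test.

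**Figure D4:**
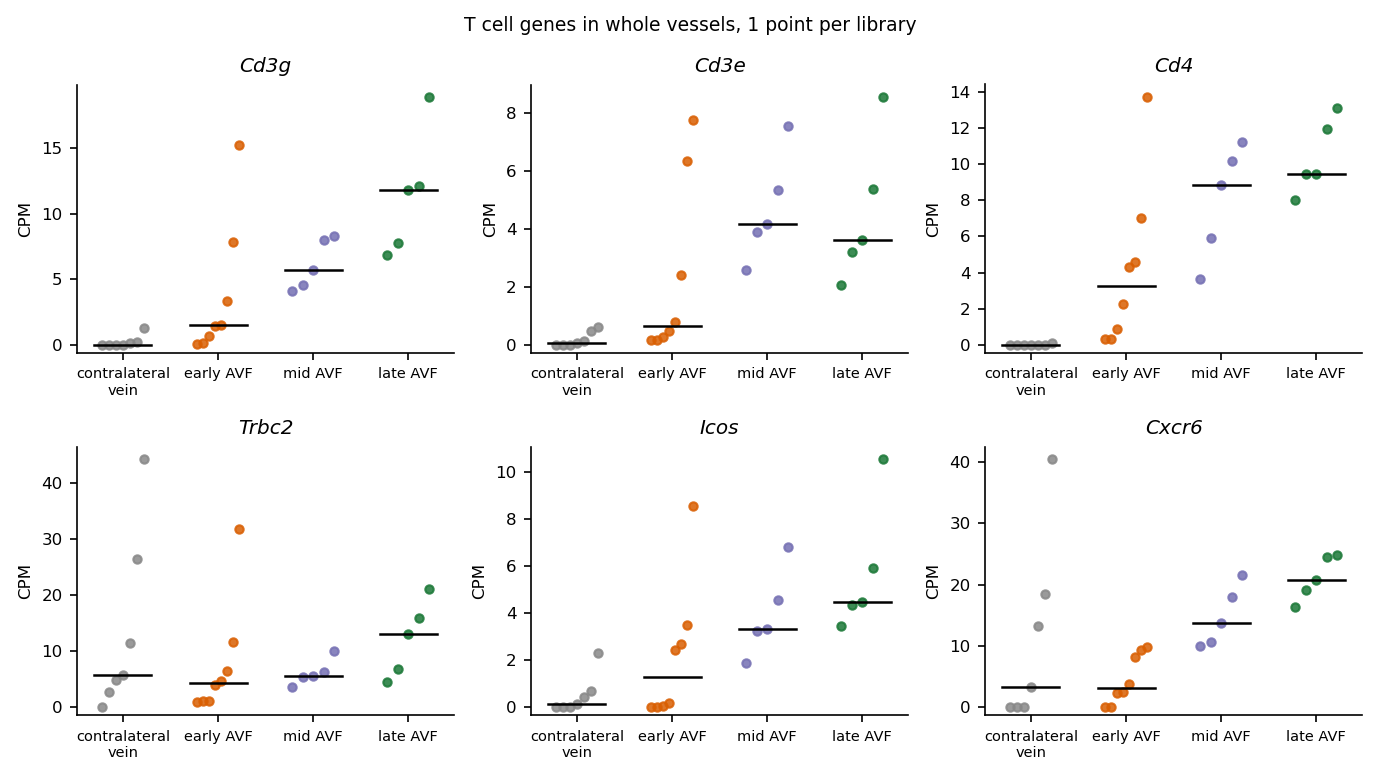
CPM of Cd3g, Cd3e, Cd4, Trbc2, Icos and Cxcr6 in each bulk library (points) by group, with a line at the median. The mid and late libraries of Cd3g, Cd3e and Cd4 all lie above the 7 contralateral libraries, and those of Trbc2 and Cxcr6 overlap them. Over all tested genes 7.07% lie entirely above in mid and 5.89% in late AVFs.

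Receptors that were higher in AVF T cells of the single-cell libraries were looked up in bulk. Tnfrsf9 had 0 counts in all 7 contralateral libraries, 0.846 to 12.0 CPM in early AVFs (median 5.36), 4.25, 3.54, 6.88, 6.22 and 8.002 CPM in mid and 5.36, 4.32, 5.195, 4.598 and 4.50 CPM in late AVFs. All AVF libraries were above all contralateral ones, as was so for 4.23%, 7.07% and 5.89% of all tested genes in early, mid and late AVFs. The mean level was at least 321-fold, 325-fold and 270-fold higher in early, mid and late AVFs against a floor of 3 counts over the contralateral group (0.0178 CPM), with adjusted p of 8.44e-08, 3.15e-07 and 6e-07 by edgeR's quasi-likelihood test. T cells held 41%, 56% and 76% of its UMIs in the contralateral, early and late single-cell libraries. Foxp3 and Ctla4, both under the floor of the test, were at 0 in every contralateral library and above 0 in every mid and late library. Contralateral libraries detected a median of 13875 genes, beside 24510.5, 25470 and 25651 in early, mid and late AVFs. The part of this in the zeros of Tnfrsf9, Foxp3 and Ctla4 and in the folds over the floor was not tested. Pdcd1 did not exceed 0.136 CPM in contralateral veins and stood at 3.52 to 5.78 CPM in mid and 2.66 to 8.01 CPM in late AVFs.

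Of the 73 tested T-enriched genes, 12 were called higher and 1 lower in early, 8 and 1 in mid, and 9 and 0 in late AVFs. Over all tested genes 6.17%, 2.74% and 2.49% were called higher and 6.45%, 3.31% and 2.85% lower. The median log2 fold change of the 73 was 0.59, 0.52 and 0.94, beside -0.01, -0.10 and -0.09 over all genes. In late against early AVFs 0 were called by edgeR, and at an unadjusted p under 0.05 there were 0 higher and 1 lower. Slamf1, a costimulatory receptor of the SLAM family, had 2 counts over the contralateral libraries and 2073, 830 and 1668 counts over the early, mid and late ones (adjusted p of 5.38e-06, 3.19e-05 and 1.35e-05 by edgeR's quasi-likelihood test). Cd69 had 34 contralateral counts, all in replicate 35, and was called in early (adjusted p = 0.00141), mid (0.00441) and late AVFs (0.00498) by edgeR's quasi-likelihood test. Gimap4, a GTPase of lymphocytes that vessels also carry, was the gene called lower in early (log2 fold change -1.47, adjusted p = 0.00251 by edgeR's quasi-likelihood test) and mid AVFs (-1.58, 0.00936).

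By class, few genes could be tested in whole vessels, and genes of other cell types moved beside them. Of the 8 macrophage genes 7 were called higher at the early, 2 at the mid and 2 at the late time point, and their summed level had a median of 4759 CPM in contralateral veins and of 27370, 13587 and 12677 CPM in early, mid and late AVFs. The 7 dendritic cell genes summed to 717 to 3272 CPM in contralateral veins, 705 to 5832 in early and 3199 to 6487 in late AVFs. All 5 neutrophil genes were called higher at the early time point and 2 at each later one, with a median sum of 39.5, 1329, 308 and 140 CPM for contralateral, early, mid and late libraries. The 4 smooth muscle genes were called lower at all 3 times, with a median sum of 10325, 1552, 1554 and 2594 CPM. The 4 endothelial genes also moved down, with 2, 3 and 2 of them called lower, and their summed level had a median of 2101 CPM in contralateral veins and of 318, 491 and 531 CPM in early, mid and late AVFs. The part of these cells in the calls that follow was not tested. The 2 tested inhibitory receptors, Havcr2 and Btla, were called higher at all 3 time points, with 4 and 10 contralateral counts in total. T cells held 10.7%, 4.23% and 9.07% of the Havcr2 UMIs and 8.48%, 12.5% and 25.1% of the Btla UMIs of kept barcodes. Of the 7 tested naive and recirculation genes, Ccr7, of whose UMIs T cells held 21.0%, 6.62% and 7.21%, was called higher and S1pr1 lower at all 3 times, and Klf2 lower in mid and late AVFs. S1pr1, the receptor by which T cells leave lymphoid organs and which endothelium also carries, ranged from 199.8 to 546.3 CPM in contralateral veins (median 365.2) and from 59.3 to 142.6 CPM in early AVFs (median 110.3). It stood at 146.6, 116.5, 131.4, 115.7 and 136.1 CPM in mid and at 154.7, 149.2, 129.5, 114.7 and 108.2 CPM in late AVFs. Every AVF library lay below every contralateral one, as was so for 2.48%, 4.91% and 4.43% of all tested genes in early, mid and late AVFs. The gene had a log2 fold change of -1.73 ± 0.21 in early AVFs (adjusted p = 8.97e-07 by edgeR's quasi-likelihood test), and T cells held 11%, 8% and 31% of the S1pr1 UMIs of kept barcodes. Of the tested cytotoxic (4), type 1 (2), type 17 (3), regulatory T (2) and gamma-delta receptor genes (1), 0 were called at any time by edgeR, and at an unadjusted p under 0.05 there was 1 cytotoxic gene and 1 type 17 gene higher, and 1 type 17 and 1 regulatory T gene lower, in early AVFs.

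The other lists held calls, given in the order of early, mid and late AVFs. Over all tested genes 6.17%, 2.74% and 2.49% were called higher and 6.45%, 3.31% and 2.85% lower, and against these shares a single call in a list of this size says nothing about the list. Of the 8 tested T cell cytokine genes 4, 3 and 3 were called higher and 0 lower, with Tnf, Tgfb1 and Ccl3 called at all 3 times. Of the 13 homing receptors 5, 3 and 3 were called higher and 1 lower each time, Ccr7 and S1pr1 of the naive list among them, of the 6 tissue residence genes 3, 3 and 2 higher and 1, 1 and 0 lower, and of the 13 cytokine receptors 2, 1 and 1 higher. Of the 3 tested costimulation genes, Tnfrsf9 was called higher at each time. Of the 12 cell division genes 7, 1 and 1 were called higher, of the 11 interferon-stimulated genes 2, 0 and 0 higher, and of the 15 immediate early and heat shock genes 3, 2 and 1 lower. The 3 tested NK and innate lymphocyte genes gave 2, 1 and 0 higher calls, of Tyrobp and Fcer1g, which myeloid cells also carry. In the contralateral, early and late single-cell libraries T cells held 12.5%, 0.210% and 0.743% of the UMIs of Tnf and 3.23%, 0.183% and 0.523% of those of Ccl3.

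Of the 3 tested type 2 genes, Hs3st1, an enzyme that modifies heparan sulfate, was called lower at all 3 times. It ranged from 110.4 to 188.3 CPM in contralateral veins (median 158.0) and from 3.89 to 32.4 CPM in early AVFs (median 10.95). It stood at 29.5, 25.7, 44.99, 33.8 and 30.1 CPM in mid and at 37.2, 43.99, 35.1, 24.8 and 27.8 CPM in late AVFs, so that every AVF library lay below every contralateral one. The same was so for 2.48%, 4.91% and 4.43% of all tested genes in early, mid and late AVFs. The log2 fold change was -3.50 ± 0.38 in early (adjusted p = 1.41e-07), -2.23 ± 0.43 in mid (0.000754) and -2.22 ± 0.43 in late AVFs (0.000981) by edgeR's quasi-likelihood test. T cells held 3.81%, 0% and 0.751% of its UMIs of kept barcodes.

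Signals that draw T cells were looked at last. Cxcl16, the chemokine that Cxcr6 binds, ranged from 0.377 to 81.3 CPM in contralateral veins (median 41.5) and from 100.2 to 315.4 CPM in early AVFs (median 211.7). It stood at 220.1, 140.9, 160.5, 183.3 and 171.4 CPM in mid and at 202.9, 210.2, 175.1, 145.4 and 163.6 CPM in late AVFs. Every AVF library was above every contralateral one, as were 4.23%, 7.07% and 5.89% of all tested genes in early, mid and late AVFs. The log2 fold change was 2.38 ± 0.48 in early (adjusted p = 0.000692), 2.09 ± 0.51 in mid (0.00701) and 2.10 ± 0.51 in late AVFs (0.00755) by edgeR's quasi-likelihood test. In the single-cell libraries Cxcl16 stood at 2.31, 31.6 and 24.99 CPM in T cells and at 64.1, 317.7 and 209.0 CPM in the other kept barcodes. The chemokine thus stood above contralateral veins at every time point. Of the 12 tested T cell attracting chemokines, 4 were called higher at the early, 3 at the mid and 3 at the late time point, and 0, 1 and 1 lower, beside 6.17%, 2.74% and 2.49% of all tested genes called higher and 6.45%, 3.31% and 2.85% called lower.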

How the data were processed

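Single-cell matrices held UMI counts that the authors deposited as Cell Ranger 6.0.2 output (per the file headers), and the bulk table held read counts per gene that the authors deposited without normalization. The submitters' processing notes name STAR, Cell Ranger, mm10 and GRCm38 without a role. For the bulk table no aligner or build is given in the sources used here. T cells were selected as described, UMIs were summed per library, and ratios carry 95% conditional binomial intervals. Doublets were called with Scrublet but not removed. Cells were clustered on 2000 variable genes, 12 principal components and 20 neighbours at a resolution of 0.5 (scanpy 1.11.5, leidenalg 0.10.2), and groups were named from fixed markers, with CPM levels compared only within a library type. Thinning drew 1000 UMIs per cell and left out 10, 1 and 0 shallower contralateral, early and late T cells. Bulk counts were tested with edgeR 4.0.16 (R 4.3.3; TMM, 1 fit over the 4 groups of 25 libraries), with DESeq2 1.42.0 as an alternative. On simulated counts for early against contralateral veins over 12673 genes the test recovered 0%, 20%, 58% and 74% of genes changed by 1, 2, 3 and 4 on the log2 scale. Symbols came from the single-cell gene list (32210) or the reference table (19962), and nothing says whether bulk libraries were strand-counted. Named genes were the rule's genes and markers, the most abundant and the called members of each list, and the 12 highest and lowest ratios between libraries. Members and lists were chosen with earlier results of these data known. The study's methods allot as many mice to bulk sequencing as there are bulk libraries, but the labels tie no library to a mouse. For single cells the methods name fewer mice than vessels pooled, so some mice gave vessels to more than 1 pool. A few genes are not reported here.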

Additional observations from a re-analysis of the deposited data

Results flagged for a closer look

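For 27 T cell genes and 2 list sums, each of the 4 bulk groups was searched for 1 library that stood far from the others, which made 115 searches where the values were not all equal, and 22 were found; chance marks about 1 in 20 groups of normally distributed values, and a group with 1 library above 0 is always marked. In contralateral replicate 28 these were Themis at 174.8 CPM, Cd8a at 57.6 CPM and Trbc1 at 52.9 CPM, in the library with the highest summed B cell (2855 CPM) and plasma cell (1203 CPM) levels. Replicate 27 stood out for Cd28 (5.61 CPM), Btla (0.395 CPM) and Ccr7 (0.316 CPM), replicate 34 for Prkcq (12.6 CPM) and Cd3g (1.31 CPM), and replicate 35 for Icos (2.30 CPM), Cd69 (1.15 CPM) and Slamf1 (0.0678 CPM). Replicate 31 stood out for Cd4 (0.0895 CPM) and replicate 633 for Cd3d (0.691 CPM). For Cd4, Ccr7, Cd69, Btla and Slamf1 it was the only contralateral library above 0.

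Among early AVFs, replicate 4 was far above the others for Trbc2 (31.8 CPM), Trbc1 (20.2 CPM) and Icos (8.53 CPM), replicate 6 for H2-Q7 (102.9 CPM) and Il7r (81.6 CPM), replicate 1 for Prkcq (27.9 CPM) and replicate 5 for Slamf1 (21.98 CPM). Among mid AVFs, replicate 12 stood out for Prkcq (46.2 CPM) and replicate 14 for Cd8a (5.04 CPM).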

How the results depend on the processing

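No paired analysis was possible because the bulk groups share no replicate numbers and there was 1 single-cell library per condition. Over early, mid and late AVFs against contralateral veins, 1, 1 and 2 identity genes were called. The counts were 4, 5 and 7 with a base mean of at least 10 and 4, 5 and 6 with every gene with a count. Both of these settings admitted more of the 32 identity genes to the test. The shares of all genes called are given for the main fit alone, so counts under the other settings lack a background. By DESeq2 the counts were 4, 2 and 2, and sex as a term gave 1 in late AVFs. Without 1 library they were 1 to 3, 1 to 2 and 1 to 2, with 3 in early AVFs without contralateral replicate 34. Themis turned positive by DESeq2 (log2 fold change 2.88, 3.32 and 4.41), and Il7r, late against early, ranged from -0.55 to 0.018 when 1 library was left out, the last without early replicate 6. The T cell share of the contralateral library was 8.37% with at least 1 UMI, 4.67% with 3, 4.68% with mitochondrial UMIs up to 20% and 3.89% with a CD3 UMI, and the late share 10.4% with 1 UMI. Chosen after seeing the data, the CD3-positive members turned the late over contralateral ratio of Cd3g (0.988) and Il1rl1 (1.08), and leaving out Rag1, Rag2, Dntt or Arpp21 cells turned Trbc2 and Mki67 (1.00 each). The causes were not tested. With CD3-positive members only, 15 ratios between libraries stayed within their interval, 37 moved beyond it and 2, those of Cd3g and Il1rl1, were counted as turned. The late over contralateral ratio of Il17f, not counted as turned, crossed 1 as well, from above it over all members to below it. With cells weighted equally, also chosen after seeing the data, 29 stayed and 25 moved, over 1.5 times for Gzma (early over contralateral 0.423, late 0.241), Il17f (4.14 and 1.84), late Il17a (2.96), early Foxp3 (9.90) and early Gzmb (1.86), and late Top2a, whose interval included 1, crossed it (1.19). In whole vessels 18 of 32 identity genes had enough counts for a test.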
